A study of Mus musculus with 6 samples.

Results

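Genes that carry or store zinc, iron, calcium and magnesium were examined in colorectal tissue of colitis mice that received berberine (BBR) or sulfasalazine (SASP). The set was chosen by gene symbol. It held every zinc transporter of the Slc30a and Slc39a families in the table, a pair of metallothioneins, and the main channels, carriers, stores and regulators of calcium, magnesium and iron. It came to 39 of the 18268 genes in the table, with 23 zinc transporters, 2 metallothioneins, 4 calcium genes, 2 magnesium genes and 8 iron genes. Of the 39 members, 34 were abundant enough to be tested, and 5 were not.

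RNA sequencing covered 6 C57BL/6 mice. Each of them was given dextran sulfate sodium (DSS), which damages the colonic epithelium, over 7 days, and each was gavaged with a drug over 6 days. BBR, a plant alkaloid, was given to 3 mice, and SASP, an aminosalicylate prodrug prescribed for ulcerative colitis, to the other 3. The study used adult males, and no genotype other than the C57BL/6 strain was recorded for these mice. Healthy mice and colitis mice without a drug were not analysed here, so every value below sets BBR against SASP within colitis. The labels do not state whether the 3 samples of a group were collected or sequenced together, and p-values measure the spread between these samples.

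Metal ions cross the gut wall by way of dedicated proteins. ZnT proteins (Slc30a genes) carry zinc out of the cytosol, across the cell surface or into vesicles, and ZIP proteins (Slc39a genes) carry it into the cytosol. Metallothioneins are small, cysteine-rich proteins that bind zinc and copper, and their genes are switched on by the zinc-sensing factor MTF1. Iron enters through the divalent metal transporter, leaves through ferroportin and is stored in ferritin, while calcium and magnesium enter epithelial cells through channels of the Trp family. Vitamin D, acting through its receptor, is known to raise several calcium-handling genes of the intestine.

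Levels were given as FPKM, fragments counted per unit of transcript length and of mapped reads, which are scaled by length and so can be compared between genes. Read totals were not given with the table, so the depth behind each value is unknown. The sum of FPKM per mouse ranged from 461163 to 487054, and 11518 to 12307 genes reached an FPKM of 1. BBR mouse 3 stood apart from its group: across genes, log2(FPKM + 1) correlated at 0.949 and 0.953 with the other BBR mice. BBR mice 1 and 2 correlated at 0.987, and the SASP mice among themselves at 0.982 to 0.989. With SASP mice 1, 2 and 3, BBR mouse 3 correlated at 0.920, 0.953 and 0.944, so it was as close to SASP mouse 2 as to its own group. BBR mouse 1 also reached 0.953 with SASP mouse 2. Epithelial genes were abundant in every mouse, with a summed level of 10 markers of 8383 to 9171 FPKM under BBR and 8670 to 9938 FPKM under SASP. The single markers were split. Krt18 was higher, and Krt20, Vil1 and Cldn7 were lower, in every BBR mouse than in any SASP mouse (40% of the 10, against 37.9% of all genes). The other 6 overlapped. Krt18 (0.75 on the log2 scale, limma adjusted p = 0.0163) and Vil1 (-0.55, adjusted p = 0.0327) passed the threshold (20%, against 8.86% of all genes). Markers of anal squamous epithelium summed to at most 2.45 FPKM in any mouse. Smooth muscle markers were higher in sum under BBR, at 3293 to 7617 FPKM over 12 genes against 917 to 2730 FPKM. All 12 estimates were higher, with a median log2 fold change of 1.22 against 0.10 for all genes tested. In 7 of the 12 (58.3%, against 37.9% of all genes) the groups did not overlap, and in 5 they did. An unadjusted p under 0.05 was found for 9 in limma (31.8% of all genes), and 0 passed the adjusted threshold (8.86% of all genes). The summed level of 10 macrophage markers was lower under BBR (141 to 191 FPKM against 258 to 281 FPKM), but this gap lay in the most abundant pair, Lyz2 and Cd14. Of the 10 markers, 4 had higher and 6 lower estimates, 7 overlapped between groups, and Mrc1 was higher in every BBR mouse. Over 9 granulocyte markers the sums overlapped (192 to 568 against 357 to 536 FPKM), but they followed Ly6g alone, at 190 to 552 and 329 to 505 FPKM. Csf3r and Cxcr2 lay between 0.58 and 1.90 FPKM with overlap. S100a8 was listed at 0 in BBR mice 1 and 2 and reached 6.19 FPKM in BBR mouse 3, against 18.5 to 23.1 FPKM under SASP. S100a9 was at 0.11, 0.11 and 5.25 FPKM in the BBR mice, against 6.91 to 10.7 FPKM under SASP. Among absorptive colonocyte markers the summed levels also overlapped (4904 to 9243 against 4428 to 5815 FPKM), with Car1 and Cyp2c55 higher, and Krt20 and Ceacam20 lower, in every BBR mouse than in any SASP mouse. The study describes rectal tissue in its sequencing methods and colon tissue in its account of the SASP experiment. If the segment differed between groups, segment and drug cannot be told apart. Posterior Hox genes, which mark position along the gut, summed to 242 to 468 FPKM under BBR and 274 to 332 FPKM under SASP over 8 genes, and BBR mouse 3 had the lowest sum. These sums followed Hoxb13, at 151 to 300 FPKM under BBR and 168 to 199 FPKM under SASP. Of the 8 estimates 7 were higher and 1 lower under BBR. Hoxa11 and Hoxa10 were higher in every BBR mouse than in any SASP mouse (25% of the 8, against 37.9% of all genes). The other 6 overlapped, and 0 passed the threshold (8.86% of all genes). The part of these differences in the results below was not tested. In whole tissue, fewer cells of a type and less RNA per cell cannot be told apart either.

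The members differed widely in level. The ferritin genes Fth1 and Ftl1 were the most abundant, with means of 1783 and 1077 FPKM over the 6 mice. Mt1 and Vdr had means of 174 and 113 FPKM. At the other end were 5 members below the filter of 1 FPKM in at least 3 mice. Slc30a8, which loads insulin granules of pancreatic beta cells, was listed at 0 in 5 of the 6 mice. Slc39a12, a zinc importer of brain, reached at most 0.08 FPKM. Slc39a2 ranged from 0.32 to 1.41 FPKM and Slc30a2 from 0.07 to 1.12 FPKM, with overlapping groups in each case. Cybrd1, the ferric reductase of the duodenal brush border, was at 0.55, 0.72 and 0.58 FPKM in the BBR mice and 0.34, 0.40 and 0.40 FPKM in the SASP mice. These values are separate between groups but were too low for a test.

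Between the drugs, 3 of the 34 tested members passed an adjusted p of 0.05 in limma, and each of the 3 was higher under BBR. They were Slc30a10, Slc30a4 and Trpm6. The share, 8.82%, was near that of all 12072 genes tested, where 1069 genes (8.86%) passed, 3.82% as higher and 5.04% as lower. Of the 34, 23 had a higher and 11 a lower estimate under BBR. Most genes leaned the same way, with 7337 of the 12072 tested higher and 4735 lower. The median log2 fold change of the members was 0.25, against 0.10 for all genes tested. In 13 members the 3 BBR values did not overlap the 3 SASP values, 10 with BBR above and 3 with BBR below. For all genes tested the groups did not overlap in 37.9%, with BBR above in 21.3% and below in 16.6%. As a set, then, the members were called about as often as other genes, and the differences lay in individual transporters. At an unadjusted p of at most 0.05, 12 members (35.3%) and 31.8% of all genes passed.

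**Figure D1:**
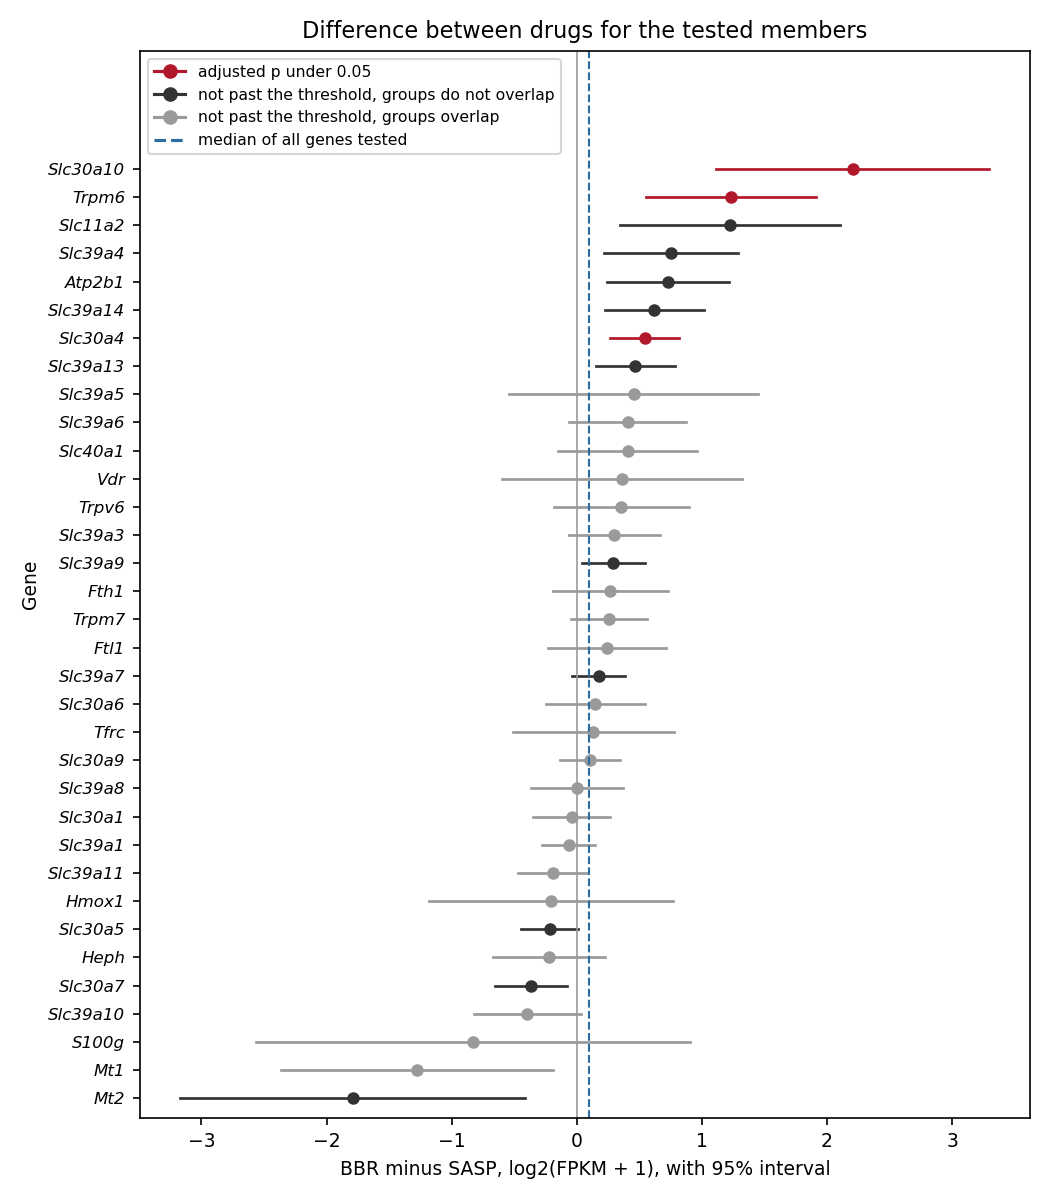
Difference between BBR and SASP colitis mice for the 34 tested members. The horizontal axis is the log2 fold change of FPKM + 1 (BBR minus SASP) with its 95% interval from limma. The intervals are not adjusted for the number of genes tested, while the call is. Each row is a gene, colours mark the call and whether the groups overlap, and the dashed line is the median of all genes tested (0.10). Estimates run from -1.79 for Mt2 to 2.21 for Slc30a10, and 3 genes passed the threshold.

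Among the zinc exporters, 7 of the 9 genes in the table were tested, and 2 passed the threshold as higher under BBR. Of all genes tested, 3.82% did. The exporter estimates were higher in 4 of the 7 and lower in 3. Slc30a10 had the largest difference of any member. It encodes ZnT10, known mainly as a manganese exporter of the liver and gut, and its gene is a known target of vitamin D. It was at 19.5, 13.8 and 5.25 FPKM in BBR mice 1, 2 and 3, and at 0.96, 1.47 and 2.98 FPKM in SASP mice 1, 2 and 3. Every BBR mouse lay above every SASP mouse, and BBR mouse 3 was the lowest of its group. The group means were 12.9 ± 7.18 and 1.80 ± 1.05 FPKM (SD, n = 3 each), a ratio of 7.13. The log2 fold change was 2.21 (SE 0.46, limma adjusted p = 0.0366). It stayed between 1.84 and 2.70 when each mouse was left out in turn, but the call held only without BBR mouse 3, with adjusted p-values from 0.00362 to 0.146 over these 6 fits.

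Slc30a4, which encodes ZnT4 and loads zinc into vesicles and milk, rose by less but with little spread between mice. It was at 17.4, 17.0 and 15.3 FPKM in the BBR mice and 10.5, 12.4 and 10.3 FPKM in the SASP mice. The lowest BBR value was above the highest SASP value. Means were 16.6 ± 1.12 and 11.1 ± 1.16 FPKM (SD, n = 3 each). The log2 fold change was 0.54 with an SE of 0.12 (limma adjusted p = 0.0390). The call held without BBR mouse 3 and was lost without any 1 of the other mice (adjusted p of 0.0109 to 0.160). Of the remaining exporters, Slc30a5 and Slc30a7, which bring zinc into the early secretory pathway, had lower values under BBR without overlap. Slc30a7 was at 11.7, 9.61 and 10.7 FPKM in the BBR mice and 13.6, 15.5 and 13.0 FPKM in the SASP mice (difference on the log2 scale -0.37, SE 0.12, adjusted p = 0.0956). Slc30a5 was at 19.5, 17.6 and 17.3 FPKM against 21.0, 20.9 and 21.7 FPKM (-0.22, SE 0.10, adjusted p = 0.176). Neither passed the threshold. Slc30a1, the zinc exporter of the cell surface, was at 16.1 ± 2.41 and 16.5 ± 1.06 FPKM, with a 95% interval of its log2 fold change from -0.35 to 0.27. Slc30a6 and the mitochondrial Slc30a9 also overlapped between groups, at 0.15 and 0.11 on the log2 scale.

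Of the 14 zinc importers, 12 were tested and 0 passed the threshold in limma (8.86% of all genes). An unadjusted p under 0.05 was found for 4 of them (31.8% of all genes). The importer estimates were higher under BBR in 9 and lower in 3. Slc39a4, which encodes ZIP4, the importer at the luminal face of enterocytes and the gene mutated in the zinc deficiency acrodermatitis enteropathica, was at 79.4, 94.0 and 147 FPKM in BBR mice and 60.7, 68.4 and 54.1 FPKM in SASP mice. All BBR values were above all SASP values, and here BBR mouse 3 was the highest. The log2 fold change was 0.75 (SE 0.23, limma adjusted p = 0.0781). Slc39a14, which encodes ZIP14 and takes up zinc, iron and manganese, was at 8.32, 9.52 and 6.52 FPKM against 4.55, 5.74 and 4.43 FPKM, also without overlap. The difference of 0.62 on the log2 scale (SE 0.17, limma adjusted p = 0.0629) passed the threshold with quantile normalization (0.53, adjusted p = 0.0335), with median-ratio scaling (0.55, adjusted p = 0.0339), with array weights and without BBR mouse 3. Slc39a10 was called lower with quantile normalization and with array weights, so that the quantile fit called 4 members higher and 1 lower, where 6.15% of all genes were called higher and 8.23% lower.

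Slc39a13, whose product ZIP13 is needed for connective tissue development, was at 4.83, 4.35 and 4.50 FPKM in the BBR mice and 2.56, 3.22 and 3.33 FPKM in the SASP mice (difference on the log2 scale 0.47, SE 0.13, adjusted p = 0.0703). Slc39a9, a Golgi zinc carrier, was at 45.3, 38.9 and 39.7 FPKM against 32.1, 36.0 and 32.4 FPKM (0.29, SE 0.11, adjusted p = 0.113). Slc39a7, which releases zinc from the endoplasmic reticulum, was at 52.9, 52.3 and 48.4 FPKM against 43.5, 45.6 and 46.7 FPKM (0.17, SE 0.09, adjusted p = 0.227). In these 3 genes the groups did not overlap, but the differences did not pass the threshold. Slc39a5, the importer at the basolateral face, was at 35.5 and 45.0 FPKM in BBR mice 1 and 2 but at 13.5 FPKM in BBR mouse 3, below the SASP range of 16.4 to 26.5 FPKM. The other importers overlapped between groups. Slc39a3 and Slc39a6 had log2 fold changes of 0.30 and 0.41, Slc39a8 and Slc39a1 of 0.00 and -0.06, and Slc39a11 and Slc39a10 of -0.19 and -0.40.

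**Figure D2:**
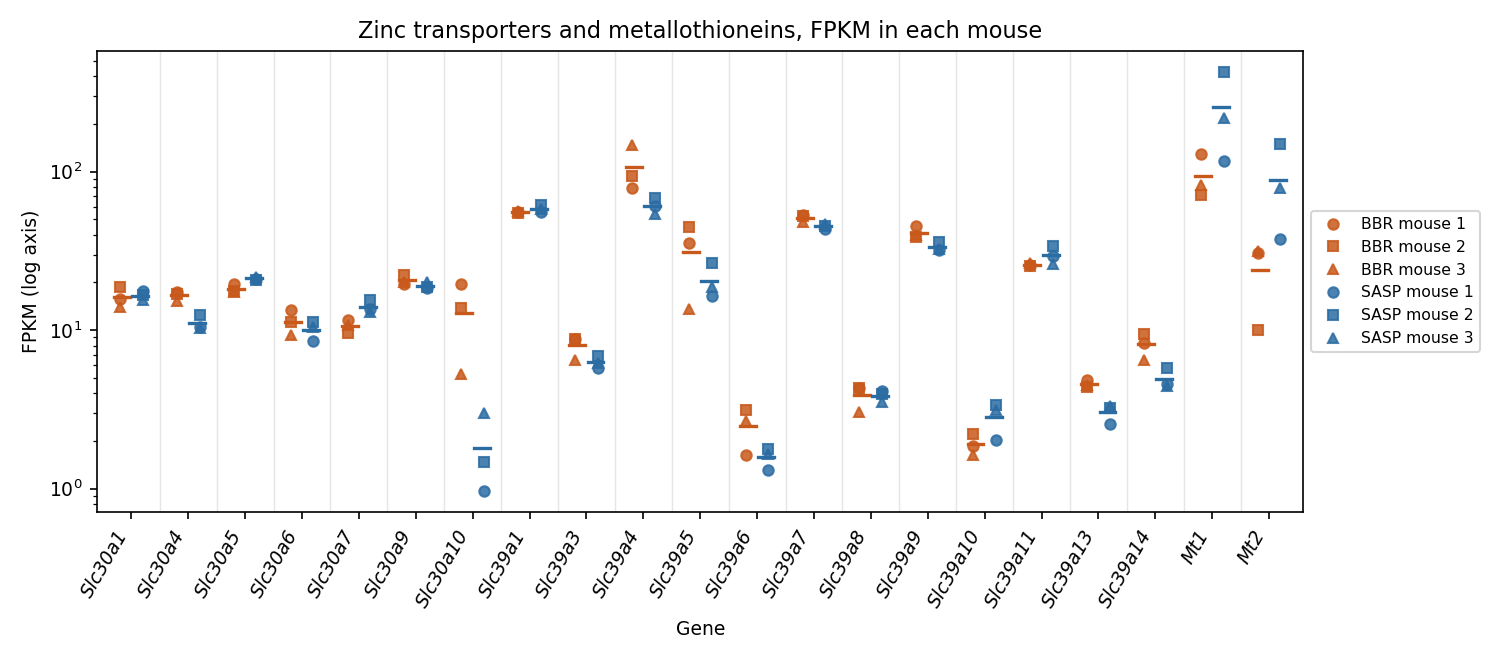
FPKM of the 7 tested zinc exporters, 12 tested zinc importers and 2 metallothioneins in each mouse, on a log axis. Orange points are BBR and blue points SASP mice, symbols mark the mouse, and short lines are group means. Slc30a10 separates by a ratio of means of 7.13 with a wide spread in each group, while Slc30a4 separates with narrow groups.

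The metallothionein genes had lower estimates under BBR and varied widely among the SASP mice. Mt1 was at 129, 71.0 and 82.0 FPKM in BBR mice and at 116, 427 and 219 FPKM in SASP mice. SASP mouse 2 was far above the rest, and SASP mouse 1 lay below BBR mouse 1. Mt2 was at 30.7, 9.96 and 31.4 FPKM in BBR mice and at 37.8, 149 and 79.3 FPKM in SASP mice, with no overlap. In both genes SASP mouse 2 was the highest and SASP mouse 1 the lowest of the SASP group, and BBR mouse 2 was the lowest of all mice. The log2 fold changes were -1.28 for Mt1 (SE 0.46, limma adjusted p = 0.113) and -1.79 for Mt2 (SE 0.58, adjusted p = 0.0917). Neither passed the adjusted threshold. Their unadjusted limma p-values were 0.0274 and 0.0180. The 95% intervals, which are not adjusted for the number of genes tested, reached from -2.37 to -0.19 and from -3.17 to -0.41 and did not include 0. Across the 6 fits that each left out a mouse, the estimates stayed below 0, at -1.74 to -0.81 for Mt1 and -2.29 to -1.27 for Mt2, and passed in none of these fits. Mtf1, the gene of the factor that drives metallothionein transcription, was not a member and passed the threshold as lower. It was at 6.93, 8.19 and 8.0 FPKM in the BBR mice and 12.6, 11.1 and 15.2 FPKM in the SASP mice (difference on the log2 scale -0.67, adjusted p = 0.0386), a call that held without BBR mouse 3 and was lost without any 1 of the others.

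Promoter sequences are shown for the 3 members that passed the threshold and for the metallothionein pair, which share a known regulator, so that the letters bound by MTF1 can be compared. Sequences came from RefSeq on GRCm38.p6, where 31 of the 39 members had an entry. The metal response element bound by MTF1 was searched as TGCACNC and TGCGCNC on both strands, in the 250 bases before each annotated start. Overlapping matches were counted as 1 place. Capitals mark the matches, and each sequence runs 5′ to 3′ along the strand of the gene.
Slc30a10, chr1:185454598-185454847, plus strand: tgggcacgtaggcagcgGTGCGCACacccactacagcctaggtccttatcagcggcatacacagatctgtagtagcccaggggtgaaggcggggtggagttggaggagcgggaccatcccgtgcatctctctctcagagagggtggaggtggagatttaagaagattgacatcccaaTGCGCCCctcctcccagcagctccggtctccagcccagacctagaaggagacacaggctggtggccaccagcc
Slc30a4, chr2:122702664-122702913, minus strand: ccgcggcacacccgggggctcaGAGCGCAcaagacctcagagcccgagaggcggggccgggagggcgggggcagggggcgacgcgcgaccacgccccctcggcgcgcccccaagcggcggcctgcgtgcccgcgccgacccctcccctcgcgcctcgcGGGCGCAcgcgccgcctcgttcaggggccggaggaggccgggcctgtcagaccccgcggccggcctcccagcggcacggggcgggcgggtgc
Trpm6, chr19:18749480-18749729, plus strand: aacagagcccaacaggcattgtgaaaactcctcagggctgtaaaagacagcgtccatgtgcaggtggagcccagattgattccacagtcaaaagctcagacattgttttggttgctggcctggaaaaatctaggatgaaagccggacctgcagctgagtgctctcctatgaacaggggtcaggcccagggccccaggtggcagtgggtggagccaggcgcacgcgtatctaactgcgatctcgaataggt
Mt2, chr8:94172368-94172617, plus strand: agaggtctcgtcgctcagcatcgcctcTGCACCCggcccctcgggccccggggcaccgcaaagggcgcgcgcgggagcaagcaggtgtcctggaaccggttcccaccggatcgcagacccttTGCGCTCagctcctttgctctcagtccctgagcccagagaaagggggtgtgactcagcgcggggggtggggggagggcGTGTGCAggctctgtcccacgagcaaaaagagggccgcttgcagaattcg
Mt1, first 30 bases after the annotated start, chr8:94179089-94179118, plus strand: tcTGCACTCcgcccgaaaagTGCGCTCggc

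The Mt2 window held 3 places, the windows of Slc30a10 and Slc30a4 held 2 each, and that of Trpm6 held 0. In the Mt1 window there was 1 place before the annotated start, and the first 30 bases after that start held 2. Whether Mt1 transcripts begin at the annotated start in this tissue was not tested, so the 2 places may lie in its promoter. Of all 32851 windows in the table, 21.4% held at least 1 place before the start, 4.30% at least 2 and 0.770% at least 3. In the first 30 bases, 3.28% held at least 1 and 0.0609% at least 2. That stretch held 1 place each in Mt2 and Slc39a13 and 0 in Slc30a10, Slc30a4 and Trpm6. It was printed for Mt1 alone, where matches lie, so its share is no test. Of the 38 windows of members, 17 (44.7%) held at least 1 place before the start. Counted by gene over any window, 15 of the 31 members with an entry had at least 1, 4 of them at least 2. GC content differed between promoters (82.8% for Slc30a4, 54.4% for Trpm6) and was not allowed for in these shares. The difference in share between members and all windows was not tested. The matches describe these letters only, and their occupancy was not measured.

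The magnesium genes are a pair of channels that are also kinases. Trpm6, the channel for magnesium uptake in the distal gut and kidney, rose under BBR. It was at 67.7, 48.4 and 56.2 FPKM in BBR mice and at 18.7, 38.4 and 18.4 FPKM in SASP mice. The groups did not overlap, although SASP mouse 2 stood well above the other SASP mice. Means were 57.5 ± 9.70 and 25.1 ± 11.4 FPKM (SD, n = 3 each), a ratio of 2.28, and the log2 fold change was 1.23 (SE 0.29, limma adjusted p = 0.0460). The call held without BBR mouse 3 and without SASP mouse 2 and was lost in the other 4 fits that left out a mouse (adjusted p of 0.0112 to 0.173 over the 6), with no variance trend (adjusted p = 0.0511) and with no filter on low genes (adjusted p = 0.0761). Without that filter Slc30a10 (adjusted p = 0.0640) and Slc30a4 (adjusted p = 0.0563) also missed the threshold in limma. Trpm7, the widely expressed relative, was at 14.0, 11.03 and 12.8 FPKM against 10.1, 11.4 and 9.59 FPKM, with overlap and a log2 fold change of 0.26 (adjusted p = 0.213). Of 10 further magnesium genes tested, 0 passed the threshold in limma and 0 had an unadjusted p under 0.05, with estimates from -0.09 to 0.66. Over all genes these shares were 8.86% and 31.8%. Cnnm4, the magnesium extruder of the basolateral face, was close between groups at 127, 143 and 137 FPKM in the BBR mice and 147, 131 and 151 FPKM in the SASP mice.

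For calcium, 0 of the 4 members passed the threshold (8.86% of all genes), and 1 had an unadjusted p under 0.05 (31.8%). That was Atp2b1, which encodes PMCA1, the pump that expels calcium across the basolateral membrane. It was at 64.9, 51.2 and 72.6 FPKM in BBR mice and at 28.5, 47.3 and 37.9 FPKM in SASP mice. The groups lay apart by a small margin, between BBR mouse 2 and SASP mouse 2. The log2 fold change was 0.73 (SE 0.21, limma adjusted p = 0.0693). Atp2b4, a further pump of this family from outside the set, was at 9.38, 16.6 and 22.1 FPKM against 3.30, 9.99 and 8.18 FPKM (1.09, adjusted p = 0.127). BBR mouse 3 had the highest and SASP mouse 1 the lowest Atp2b4 level, as in the summed smooth muscle markers, and the part of that tissue in the Atp2b4 values was not tested.

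Vdr, S100g and Trpv6 did not separate the drugs. Vdr, the vitamin D receptor, was at 174 and 168 FPKM in BBR mice 1 and 2 and at 57.1 FPKM in BBR mouse 3, on either side of the SASP values of 91.6, 88.0 and 97.7 FPKM. With all mice its log2 fold change was 0.36 (SE 0.40, adjusted p = 0.562), and without BBR mouse 3 it was 0.88 (adjusted p = 0.00194). S100g encodes calbindin-D9k, which ferries calcium across the cytosol, and it was at 72.9, 61.5 and 11.1 FPKM in the BBR mice and 129, 41.7 and 55.1 FPKM in the SASP mice. Its interval was the widest of the 4, from -2.56 to 0.91. Trpv6, the apical calcium channel, was at 8.16, 8.47 and 8.60 FPKM in BBR mice and at 6.11, 4.41 and 9.31 FPKM in SASP mice. Of 14 other calcium genes tested, Atp2a2, the calcium pump of the endoplasmic reticulum, passed as lower, at 71.1, 81.2 and 92.0 FPKM in the BBR mice and 119, 108 and 119 FPKM in the SASP mice (-0.50, adjusted p = 0.0492). Its call held without BBR mouse 3 and was lost without any 1 of the others. It was also lost with a pseudocount of 0.1, no filter, a mean of at least 5 FPKM, median-ratio scaling and no variance trend (limma adjusted p of 0.0506 to 0.0687).

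Of the 7 tested iron members 0 passed the threshold in limma (8.86% of all genes), and 1 had an unadjusted p under 0.05 (31.8%). Slc11a2, the divalent metal transporter that takes up ferrous iron, was at 44.6, 52.5 and 17.8 FPKM in BBR mice and at 12.6, 15.9 and 14.6 FPKM in SASP mice. No value overlapped, but BBR mouse 3 lay much nearer to the SASP mice than to the other BBR mice. The mean ratio was 2.66 and the log2 fold change 1.22 (SE 0.37, limma adjusted p = 0.0788), which became 1.69 (adjusted p = 0.00130) without BBR mouse 3. Slc40a1, which encodes ferroportin, the iron exporter of enterocytes and macrophages, was at 260, 282 and 152 FPKM against 159, 185 and 161 FPKM (0.41, adjusted p = 0.270). BBR mouse 3 lay below the SASP range. Among macrophage markers Cd14 and Lyz2 were lower under BBR without overlap, Mrc1 was higher without overlap and the other 7 overlapped, and their part in the ferroportin level was not tested. Tfrc, the transferrin receptor, was at 65.6, 45.4 and 29.0 FPKM against 44.7, 36.2 and 40.4 FPKM, and Heph, the ferroxidase that works beside ferroportin, at 47.7, 36.2 and 62.7 FPKM against 59.0, 54.5 and 54.2 FPKM. The SASP values of these genes lay within the BBR range.

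Iron storage genes overlapped between the drugs. Fth1, the ferritin heavy chain, was at 1796, 1821 and 2218 FPKM in BBR mice and at 1339, 1819 and 1707 FPKM in SASP mice (difference on the log2 scale 0.27, limma adjusted p = 0.366). Ftl1, the light chain, was at 1014, 1188 and 1280 FPKM against 834, 1243 and 901 FPKM (0.24, adjusted p = 0.427). Their intervals, from -0.19 to 0.73 and from -0.23 to 0.71, include 0. The ferritin genes have many near-identical processed copies in the genome, so the division of reads among them is uncertain. Hmox1, the enzyme that breaks down haem, was low and variable, at 2.78, 2.48 and 6.85 FPKM in the BBR mice and 2.84, 7.92 and 3.64 FPKM in the SASP mice.

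**Figure D3:**
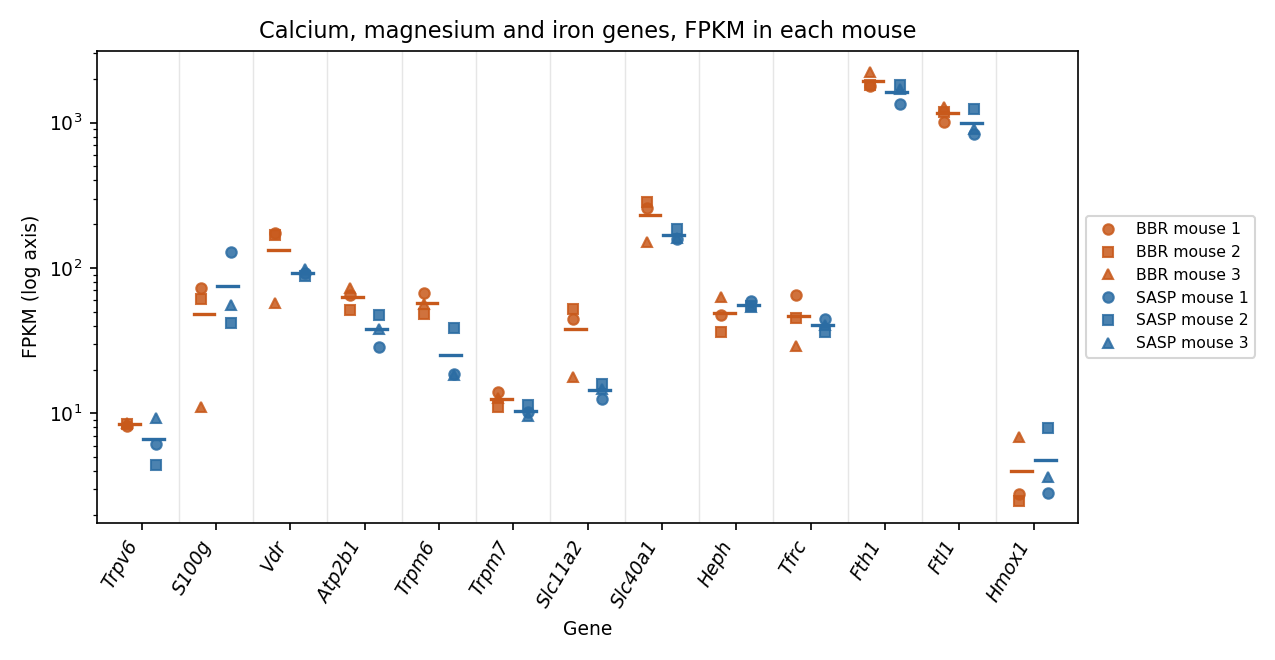
FPKM of the 4 calcium, 2 magnesium and 7 tested iron genes in each mouse, on a log axis. Orange points are BBR and blue points SASP mice, symbols mark the mouse, and short lines are group means. Trpm6, Atp2b1 and Slc11a2 do not overlap between groups, and BBR mouse 3 (orange triangle) is the lowest BBR value for S100g, Vdr, Slc11a2, Slc40a1 and Tfrc.

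The other genes of metal and mineral transport were read from lists of 92 genes, 71 of which were tested. Of these 71, 6 passed the threshold (8.45%), 1 as higher and 5 as lower under BBR. That share was near the 8.86% of all genes tested, 3.82% higher and 5.04% lower. The median log2 fold change of the 71 was 0.11. Slc20a1, a sodium-dependent phosphate importer, was the one that rose, at 763, 600.1 and 234 FPKM in the BBR mice and 85.4, 147 and 104 FPKM in the SASP mice (2.11, SE 0.44, adjusted p = 0.0359). Its order within the BBR group, with mouse 3 lowest, was that of Slc30a10. Steap1 and Steap4, of a family that includes reductases of iron and copper, fell. Steap1 was at 1.86, 1.40 and 1.11 FPKM against 4.84, 6.50 and 4.63 FPKM (-1.36, adjusted p = 0.0121) and kept its call in 4 of the 6 fits that left out a mouse. Steap4 was at 3.60, 5.6 and 13.5 FPKM against 20.2, 26.8 and 25.0 FPKM (-1.71, adjusted p = 0.0444). The calls of Slc20a1 and Steap4 held only without BBR mouse 3 among these fits, and like that of Mtf1 they were lost with no filter (adjusted p = 0.0622, 0.0749 and 0.0615). The fifth gene called lower, the amino acid transporter Slc6a19, was at 0.26, 0.30 and 0.35 FPKM under BBR and at 1.27, 1.02 and 1.03 FPKM under SASP. It met the filter through the SASP mice alone, so it had to differ, and its call is no support for a change. Slc46a1, the proton-coupled folate carrier first described for haem, did not pass, at 53.6, 70.5 and 24.4 FPKM against 18.8, 20.7 and 19.3 FPKM (1.17, adjusted p = 0.0768). The other copper, iron, calcium and mineral genes did not pass the threshold. By list, 1 of 9 zinc and copper, 2 of 26 iron, 1 of 14 calcium, 0 of 10 magnesium and 2 of 12 other mineral absorption genes were called. The last count and the total of 6 include Slc6a19. Beside the 8.86% of all genes called, these small counts set no list apart.

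The pattern across mice showed where the members disagreed. Set against the other 2 mice of its group, BBR mouse 3 differed by at least 1 on the log2 scale in 6 of 34 members (17.6%, against 5.88% of all genes), namely Slc30a10, Slc39a5, S100g, Vdr, Slc11a2 and Hmox1. It was lower in 5 of these genes and higher in Hmox1. SASP mouse 2 differed by as much in 5 members (Mt1, Mt2, S100g, Trpm6 and Hmox1) against 1.24% of all genes, SASP mouse 1 in 3, BBR mice 1 and 2 in 2 each, and SASP mouse 3 in 0. S100g was among the members that differed by this much in 5 of the 6 mice.

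**Figure D4:**
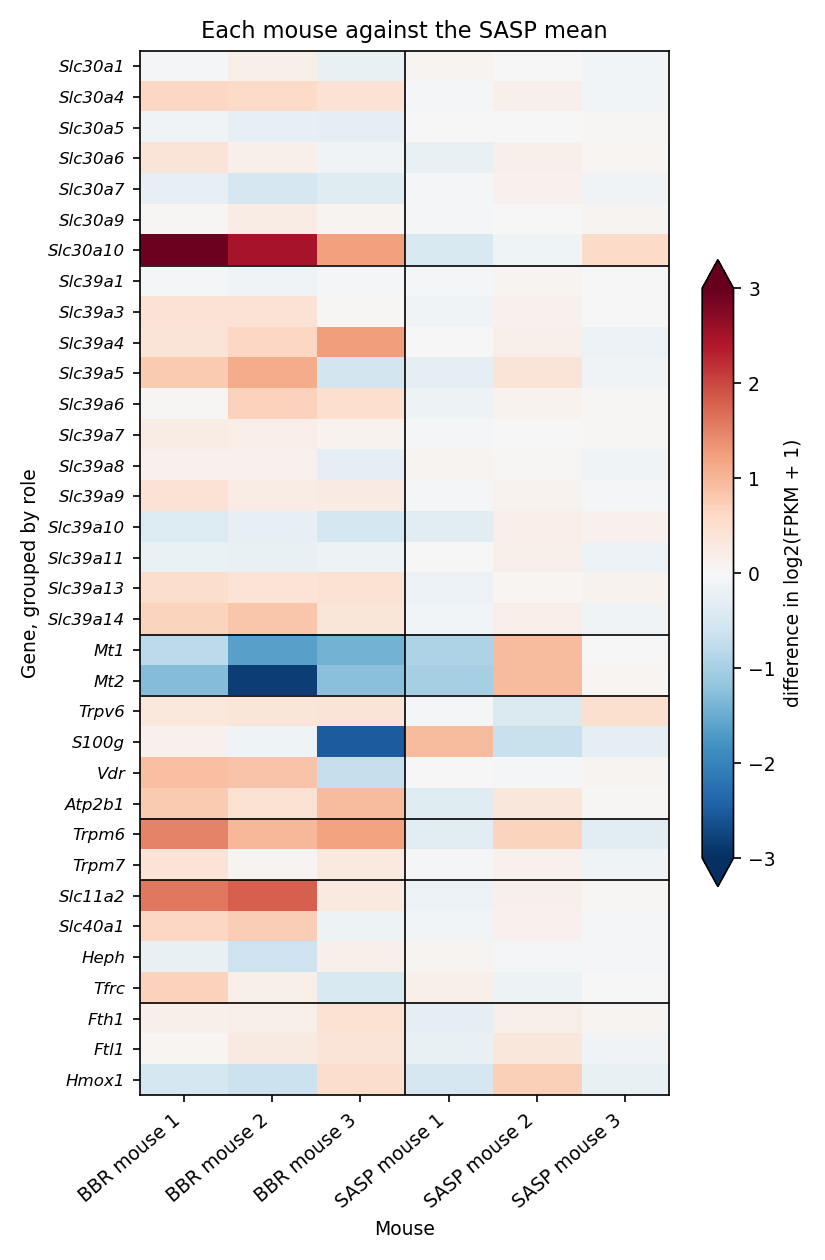
Level of each tested member in each mouse as the difference from the mean of the 3 SASP mice, in log2(FPKM + 1), red for higher and blue for lower. Rows are genes grouped by role and columns are mice. Slc30a10 is highest in BBR mouse 1 (2.94), Mt2 lowest in BBR mouse 2 (-2.82), and S100g lowest in BBR mouse 3 (-2.49).

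The number of members called depended on single mice in the same way as the number over all genes. Without BBR mouse 3, 12 of 34 members (35.3%) passed the threshold, 11 as higher and 1 as lower, while 33.8% of all genes did, 22.3% as higher and 11.5% as lower. The 12 were Slc30a10, Slc30a4, Trpm6, Slc39a3, Slc39a4, Slc39a5, Slc39a13, Slc39a14, Slc11a2, Slc40a1, Vdr and, as lower, Heph. Without SASP mouse 2 only Trpm6 passed (3.40% of all genes). Without BBR mouse 1, BBR mouse 2, SASP mouse 1 or SASP mouse 3, 0 members passed in limma, and 1.10%, 3.13%, 0.494% and 0.428% of all genes did. Under the other settings the share of members called also lay near that of all genes or below it: 8.82% against 8.06% with a pseudocount of 0.1, 10.3% against 9.54% with a mean of at least 5 FPKM, 14.7% against 14.4% with quantile normalization, 11.8% against 14.0% with median-ratio scaling, 5.88% against 8.13% with no variance trend, and 0 members against 3.33% with no filter. Array quality weights, which scale each mouse by its estimated variability, gave 67.6% against 59.0%.

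**Figure D5:**
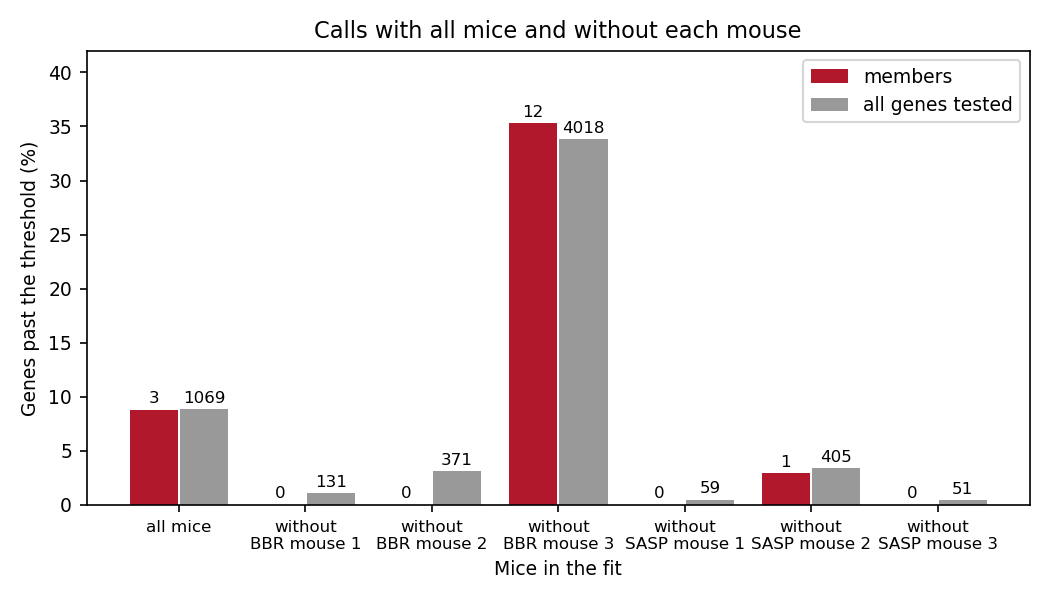
Percentage of the tested members (red) and of all genes tested (grey) past an adjusted p of 0.05 in limma, with all mice and with each mouse left out. Numbers above the bars are gene counts. The bars of members and all genes stand at 8.82% and 8.86% with all mice and at 35.3% and 33.8% without BBR mouse 3.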

How the data were processed

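The deposited table holds FPKM, which the authors calculated per gene and sample with RSEM (1.2.12) after filtering single-end reads with SOAPnuke and aligning them with Bowtie2 (2.2.5). The submitters' processing notes name mm9, and the annotation is not given in the sources used here. The methods describe rRNA depletion and nanoball sequencing, the labels an Illumina kit. RSEM divides reads that fit several genes, so near-identical genes are uncertain.

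Groups followed the treatment label, and replicate numbers followed accession order. Genes at or above 1 FPKM in 3 or more of the 6 samples were compared as log2(FPKM + 1) with limma 3.58.1 in R 4.3.3 (empirical Bayes with variance trend, two-sided, Benjamini-Hochberg over all genes tested, threshold 0.05). Fold changes are therefore on the log2(FPKM + 1) scale and are too small for low genes. The fit was tested on simulated data. Exact permutation of 3 against 3 cannot go below a p of 0.10 and was not used. By rule, tested members past the threshold or without overlap are given with every value, members below the filter with no test, and genes of the wider lists (zinc and copper, iron, calcium, magnesium, mineral absorption) where they passed. Every value of further members, and Cnnm4, Atp2b4, Slc46a1 and the marker genes, were added after their values were seen. Members and lists were chosen with earlier results of these data known. Alternatives covered the pseudocount, filter, normalization, variance trend, array weights, the study's unadjusted threshold and each mouse left out.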

Additional observations from a re-analysis of the deposited data

How the results depend on the processing

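The 3 called members became 0 with no filter, 2 with no variance trend, 4 after median-ratio scaling, 5 after quantile normalization, 12 at an unadjusted p of at most 0.05 and 23 with array quality weights, and 0 to 12 over the fits that each left out a mouse (highest without BBR mouse 3). With the same settings the 1069 called genes became 608, 982, 1696, 1737, 3837 and 7126, and 51 to 4018. The 6 called genes of the wider lists became 2 with no filter, 3 with a mean FPKM of at least 5, 5 with no variance trend or a pseudocount of 0.1, 7 after median-ratio scaling, 8 after quantile normalization, 21 at the unadjusted threshold and 41 with array weights, and 0 to 23 without a mouse. The median of the members stayed above 0, at 0.15 to 0.27 over the left-out mice. Fits without a mouse have fewer samples, and the cause of the other shifts was not tested. Estimates changed sign in 5 members, among them S100g at -0.83. Slc39a8 turned to -0.00063 with a pseudocount of 0.1, -0.12 after quantile normalization and -0.065 after median-ratio scaling, and lay between -0.065 and 0.13 when single mice were left out, below 0 without BBR mouse 1 or 2 or SASP mouse 3. Slc30a1 turned to 0.018 with array weights and lay between -0.15 and 0.054, above 0 without BBR mouse 3 or SASP mouse 1. S100g turned to 0.23 with array weights and lay between -1.31 and 0.0022, highest without BBR mouse 3. Tfrc lay between -0.15 (without BBR mouse 1) and 0.43, and Hmox1 between -0.58 and 0.15, above 0 without BBR mouse 2 or SASP mouse 2. No paired analysis was possible because the labels give the groups no shared replicate numbers. FPKM carry no read counts, so the depth behind low values is not known.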
